A study of Ictalurus furcatus with 6 samples.

Results

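Tubulins and the enzymes and binding proteins that fold, modify or sequester them were examined in testicular sperm of blue catfish (*Ictalurus furcatus*), fresh-frozen or cryopreserved. The 49 features were taken from 27416 by a rule on gene names, chosen with earlier results of these data known. The rule covers the tubulin genes themselves, the tubulin tyrosine ligase family (*ttl*, *ttll*) and the cytosolic carboxypeptidases (*agbl*, *agtpbp1*). It also covers the detyrosinase *VASH1* with its partner *svbp*, the acetyltransferase *atat1*, the tubulin folding cofactors (*tbc*), the TPPP family and the stathmins (*stmn*). The 49 features carry 42 distinct names, and the names of 11 of them came from eggNOG because the Ensembl name was missing. All fish were of the strain D&B. Fresh-frozen sperm (F2 and F3, n = 2) had been flash-frozen in liquid nitrogen, and cryopreserved sperm (C2, C3 and C5, n = 3) had received an extender and methanol before controlled-rate freezing in straws. The number is the ID of the male, so that F2 and C2 come from the same fish, as do F3 and C3. C2 was the mean of 2 technical replicates. The study describes taking the flash-frozen samples first, then extracting sperm from the rest of the testes and diluting them for cryopreservation. Effects of this handling and of cryopreservation itself cannot be told apart here. The sample labelled F5 was not analysed here. Values were taken as CPM, scaled to the total of the library. They are not divided by gene length, so levels are compared between samples of a gene and never between genes. Low values were multiples of 1 spacing only in F2, and C3 and both replicates of C2 had no feature listed at 0. The values are thus not known to be plain scaled read counts.

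Microtubules are built from heterodimers of alpha and beta tubulin, and the doublets and central pair of the sperm flagellum are among the most stable of them. Gamma tubulin nucleates microtubules, while delta and epsilon tubulin are needed for the triplets of centrioles. After assembly the flexible tails of tubulin are modified: ligases of the TTL family add glutamates, glycines or tyrosine, carboxypeptidases take glutamates off, and the pair of vasohibin and SVBP removes the last tyrosine. Chains of glutamate and glycine on axonemal tubulin are known from mice and ciliates to be needed for a normal beat.

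Both kinds of library were checked against cell type markers first. Of 10 markers of late spermatids and sperm, 8 were found, in 9 features. Differential expression was tested with limma on log2(CPM + 1), and genes were called DEGs where the log2 fold change was beyond 2 in either direction with FDR (Benjamini-Hochberg, over all 27255 features tested) below 0.05. Summed, the sperm markers stood at 339.6 and 308 CPM in F2 and F3 against 5839, 2864 and 11176 CPM in C2, C3 and C5. Among these 9 features 6 were upregulated DEGs, including *tekt1*, which encodes a protein inside the doublets, at 98.0 and 104 CPM in F2 and F3 against 2526, 1279.8 and 5292 CPM in C2, C3 and C5 (log2 fold change 4.66, standard error 0.49, FDR = 0.00399). Markers of Sertoli cells (4 of 5 names in 5 features) summed to 205 and 254 CPM in F2 and F3 against 62.3, 173 and 7.19 CPM in C2, C3 and C5, without a call. The 7 features of spermatogonia and spermatocytes summed to 331 and 302 CPM in F2 and F3 against 276, 418 and 124 CPM in C2, C3 and C5. For the 13 neuron features the sums were 268 and 269.8 CPM in F2 and F3 against 175, 201 and 220.4 CPM in C2, C3 and C5. Blood markers (5 features) had 383 and 364 CPM in F2 and F3 against 853, 438 and 118 CPM in C2, C3 and C5, and the 2 Leydig features 32.8 and 18.6 CPM in F2 and F3 against 27.7, 24.2 and 8.08 CPM in C2, C3 and C5. What part these markers had in the changes of the tubulin genes was not tested, and in bulk samples fewer cells of a type and less RNA per cell cannot be told apart. C5 stood apart from the other libraries, with a median of 2.03 CPM over all features against 9.55 to 15.7 CPM elsewhere and 2664 features listed at 0, so that counts are also given without it.

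**Figure D1:**
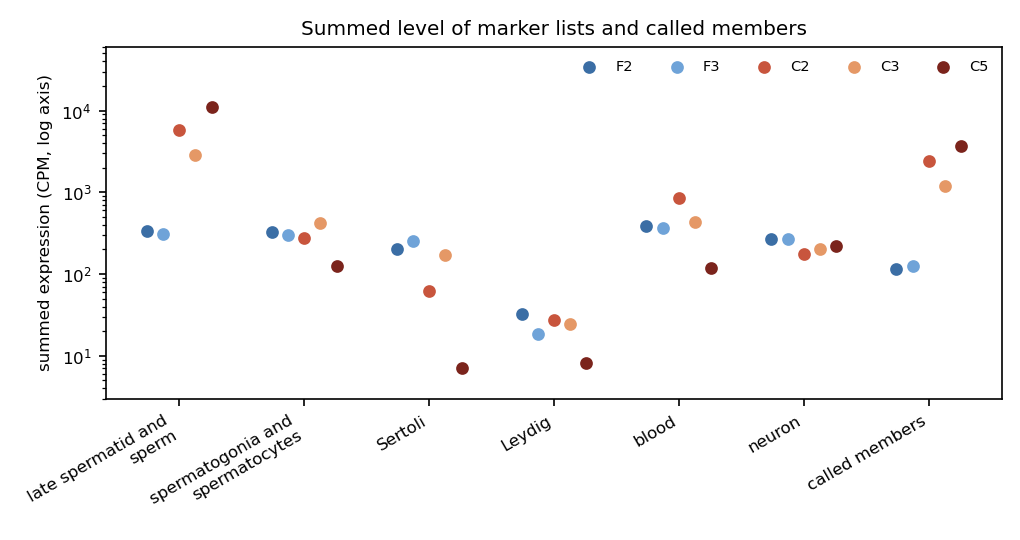
Summed expression (CPM, log axis) of 6 lists of cell type markers and of the 6 upregulated members, 1 point per sample (blue, fresh-frozen; red and orange, cryopreserved; C2 is the mean of its technical replicates). The sums of sperm markers and of the upregulated members were highest in C5 and lowest in F2 and F3. Those of Sertoli, spermatogonia and spermatocyte, blood and Leydig markers were lowest in C5, and that of neuron markers in C2.

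Of the 49 members, 6 (12.2%) were upregulated DEGs after cryopreservation, against 1.54% of the 27255 features tested. They were 3 alpha tubulins (*tuba* and 2 features named *tuba1a*), the glycylase *ttll3*, the glutamylase *ttll6* and the tubulin polymerization protein *tppp3*. Their summed level was 117 and 125 CPM in F2 and F3 against 2413, 1192 and 3740.3 CPM in C2, C3 and C5. Of the 6, 5 had the order of 8 of the 9 sperm marker features, C5 over C2 over C3. The other sperm marker feature, *Tekt2*, had the order C2 over C3 over C5 and a log2 fold change of -0.54. The order C5 over C2 over C3 was not limited to sperm markers. Among genes that work with tubulin, 13 of 14 features above in every cryopreserved sample had it. Its share over all features was not counted. Male by male, the cryopreserved level of the 6 was higher by 3.61 to 5.28 on the log2 scale in male 2 and by 2.05 to 3.92 in male 3, and the technical replicates of C2 differed by 0.01 to 0.20. No member was a downregulated DEG, and neither was any other feature (0.0%). At an unadjusted p below 0.05, 15 of the 49 members had a positive and 2 a negative log2 fold change. Of all features 1877 (6.89%) and 3083 (11.3%) did. All 49 passed the filter of a mean above 1 CPM in either group, as did 27255 of the 27416 features. The study had kept transcripts with an average above 1 RPKM in at least 1 group, so passing was nearly fixed beforehand. With the male as a replicate block, which leaves 1 residual degree of freedom and rests on males 2 and 3, 10 members were upregulated against 4.17% of all features (0.44% downregulated), and these include the 6. C5 has no fresh-frozen partner, so the members' log2 fold changes with the block equal those without C5. These fits are therefore not independent. Without F2, 3 members were upregulated (6.12% against 1.17% of all features). Without C2 no member and no other feature passed (992 features lay past the fold threshold upward and 531 downward at an unadjusted p below 0.05), although the log2 fold changes of the 6 stayed between 2.60 and 6.29 over all 16 alternative fits. Without C5, 7 members were upregulated and none downregulated, against 3.1% and 0.0915% of all features, and without C3, 12 were upregulated and 8 downregulated, against 6.77% and 25.6%.

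In 20 members all 3 cryopreserved samples lay above F2 and F3, 40.8% against 13.6% of all features. In 8 all 3 were below, 16.3% against 41.7%. That number was 15 without F2 and 16 without C3, 30.6% and 32.7% against 54.3% and 60.4% of all features in those fits. In the remaining 21 the groups overlapped. A positive log2 fold change was found in 24 of 49 members, 49.0% against 25.0% of all features. The median was -0.08 over the members and -1.02 over all features, and each change is to be read against that shift. After TMM rescaling the median of all features moved to -0.16 and that of the members to 1.11, with 33 of 49 positive. The sign held in every alternative for 35 members, including the 20 above and the 8 below. For these 20 and 8 the groups did not overlap. Leaving out samples, the pseudocount, the filter, the prior and the block could therefore not turn their sign. Only the rescalings and the single technical replicates of C2 could have done so. For 1 gene on its own, the smallest p of an exact permutation of 2 against 3 samples is 0.1.

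**Figure D2:**
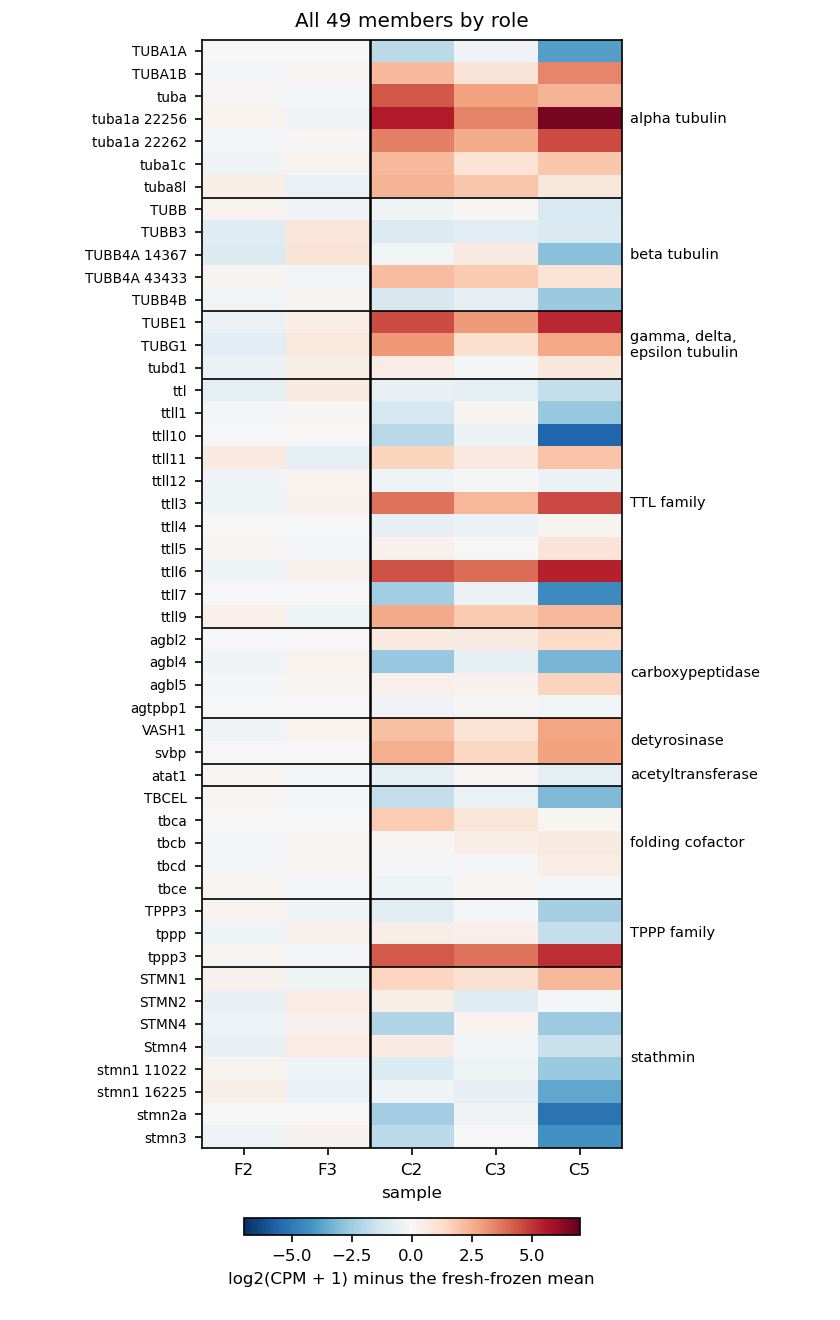
Each of the 49 members (rows, in blocks by role) in each sample (columns): log2(CPM + 1) minus the mean of F2 and F3, red above and blue below. C3 is the palest of the cryopreserved columns and C5 the most intense. Red rows gather among the alpha tubulins, epsilon and gamma tubulin and the detyrosinase pair, and *ttll3*, *ttll6* and *tppp3* stand out in the TTL and TPPP blocks.

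Alpha tubulins were the group with the most upregulated members, 3 of 7, and their median log2 fold change was 2.20. Of the 2 upregulated *tuba1a* features, AUIFUG00000022256 had 7.29 and 4.87 CPM in F2 and F3 against 321, 77.5 and 698 CPM in C2, C3 and C5. Even the lowest cryopreserved value was more than the sum of both fresh-frozen ones, and the ratio of the group means was 60.1, the highest of any upregulated member (log2 fold change 5.22, standard error 0.91, FDR = 0.0165). That ratio rests on low fresh-frozen values. This feature lost the call in 4 of 16 alternatives, at FDRs of 0.0590 to 0.443. These were a pseudocount of 0.1, median centring, a constant prior and leaving out C2. The other, AUIFUG00000022262, had 17.1 and 19.9 CPM and then 221, 115 and 459.9 CPM (log2 fold change 3.55, standard error 0.72, FDR = 0.0331). Both were highest in C5 and lowest of the cryopreserved samples in C3.

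*tuba* (AUIFUG00000005043) had 28.1 and 25.5 CPM in F2 and F3 against 554, 196 and 143 CPM in C2, C3 and C5 (log2 fold change 3.17, standard error 0.70, FDR = 0.0480). It was the only one of the 6 with its highest value in C2 and its lowest cryopreserved value in C5. Of the 5 blood features 3 had this order, the hemoglobin gene *hbaa1*, *alas2*, the first enzyme of heme synthesis in red cells, and *gata1a*, an erythroid transcription factor. The order also occurred outside the blood markers, though its share over all features was not counted. The Leydig sum had it, but of the 2 Leydig features only *star* did, while *hsd3b1* ran C3 over C2 over C5. The sperm marker *Tekt2* had the order at low levels, falling from 2.75 CPM (C2) through 0.861 CPM (C3) to 0.059 CPM (C5). Its fresh-frozen levels were low as well, 1.82 CPM (F2) and 1.86 CPM (F3). *alas2* was at 127 and 118 CPM in F2 and F3 against 637, 214 and 83.2 CPM in C2, C3 and C5, and *gata1a* at 28.1 and 28.5 CPM and 145, 47.9 and 22.7 CPM. Unlike *tuba*, both were lower in C5 than in F2 and F3. *hbaa1* had 19.0 and 8.58 CPM in F2 and F3 against 8.56, 6.82 and 0.535 CPM in C2, C3 and C5. It was thus lower in all 3 cryopreserved samples, though C2 was nearly level with F3. The leukocyte markers *PTPRC* and *mpx* had log2 fold changes of -2.18 and -1.79. The part of blood markers in the level of *tuba* was not tested. Both *tuba* and the *tuba1a* feature AUIFUG00000022262 lost the call in 7 of 16 alternatives, without F2, without F3 and without C2 among them, at FDRs of 0.0679 to 0.449 and 0.0503 to 0.449.

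The remaining alpha tubulins were not called. *tuba8l* had 81.3 and 40.6 CPM in fresh-frozen and 304, 224 and 102 CPM in cryopreserved sperm (log2 fold change 1.71, standard error 0.66, FDR = 0.265), again highest in C2. It passed in the block fit, at FDR = 0.00433. *TUBA1B* ranged from 1.09 CPM in F2 to 22.5 CPM in C5, and *tuba1c* from 1.81 CPM in F2 to 14.7 CPM in C2. In both, all cryopreserved samples were above the fresh-frozen ones, and *TUBA1B* passed only without C3. *TUBA1A* (AUIFUG00000034233) lay the other way, with 36.1 and 36.2 CPM in F2 and F3 against 9.01, 30.6 and 1.53 CPM in C2, C3 and C5 (log2 fold change -2.00, standard error 1.12, FDR = 0.279). Features of the name *tuba1a* thus lay on both sides. Alpha tubulins are close copies of each other, and reads shared by them may have been lost or given to another copy in counting. The values of single copies are therefore uncertain.

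No beta tubulin was a DEG. Of the 5, 4 had a negative log2 fold change, but only 1 with median centring, and the median was -0.82 as reported and 0.23 centred. The exception was the *TUBB4A* feature AUIFUG00000043433, with 46.6 and 34.8 CPM in F2 and F3 against 184, 148 and 79.1 CPM in C2, C3 and C5 (log2 fold change 1.66, standard error 0.67, FDR = 0.265). All 3 cryopreserved samples exceeded F2 and F3, and it had the order of *tuba* and *tuba8l*, C2 over C3 over C5. In the block fit it passed, at FDR = 0.0327. *TUBB4B* (AUIFUG00000043431) had 20.4 and 26.2 CPM and then 10.2, 14.3 and 3.04 CPM, with no overlap in the downward direction (log2 fold change -1.45, standard error 0.99, FDR = 0.333). *TUBB*, *TUBB3*, a beta tubulin known from neurons, and the other *TUBB4A* feature ranged from 2.06 to 6.56 CPM, from 1.13 to 6.86 CPM and up to 14.1 CPM, with overlapping groups, and the last was listed at 0 in C5. Whether alpha and beta tubulins differ in their response was not tested.

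Epsilon tubulin, *TUBE1* (AUIFUG00000043750), was the tubulin nearest to the threshold without a call. It had 2.17 and 4.95 CPM in F2 and F3 against 104, 32.8 and 169 CPM in C2, C3 and C5, so that the lowest cryopreserved value was above the sum of the fresh-frozen ones (log2 fold change 4.28, standard error 0.95, FDR = 0.0510). It passed in 7 of 16 alternative fits, among them the block fit and the fits without C3 or without C5. The block fit and the fit without C5 share the same log2 fold change, 3.78, since C5 has no fresh-frozen partner. Gamma tubulin, *TUBG1*, had 3.26 and 11.1 CPM in fresh-frozen and 57.7, 14.6 and 45.0 CPM in cryopreserved sperm (log2 fold change 2.28, standard error 0.99, FDR = 0.265), with C3 close above F3. Delta tubulin, *tubd1*, overlapped between the groups, at 4.36 and 8.21 CPM and 8.96, 5.43 and 11.0 CPM (log2 fold change 0.38, standard error 0.95, FDR = 0.785).

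**Figure D3:**
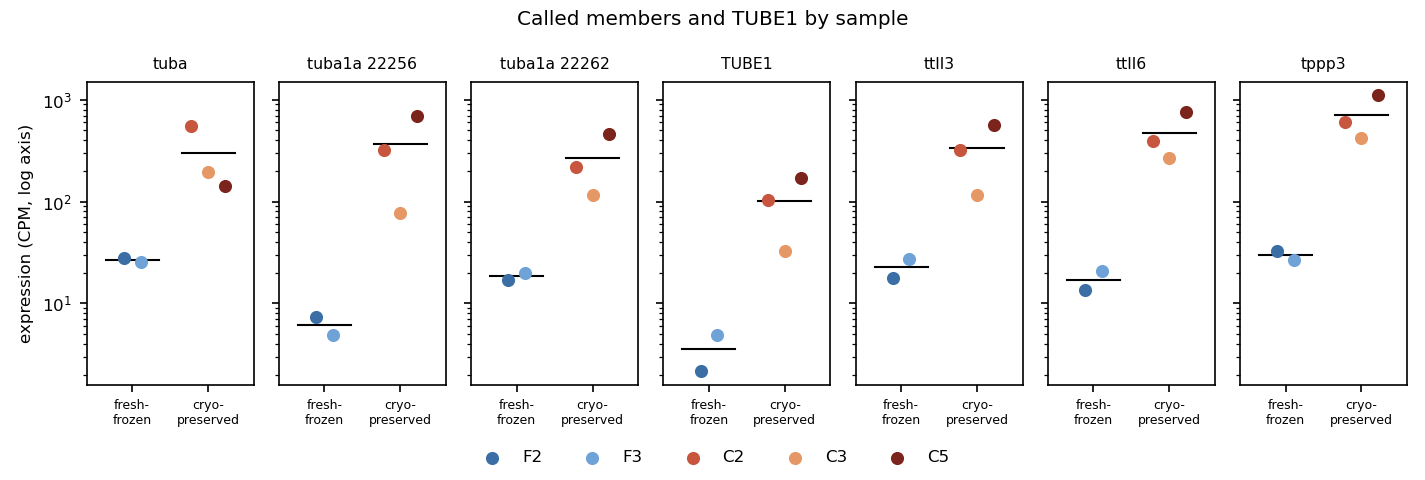
Expression (CPM, log axis) of the 6 upregulated members and of *TUBE1* in each sample, with the mean of each group as a line. All cryopreserved points lie above both fresh-frozen points in every panel, and *tuba* is the only panel in which C5 is the lowest of the cryopreserved samples.

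The TTL family held 2 enzymes that rose and also the member with the lowest log2 fold change of all 49. *ttll6* (AUIFUG00000019538), a glutamylase that lengthens glutamate chains and acts in motile cilia of zebrafish, had 13.5 and 20.8 CPM in F2 and F3 against 392, 269 and 761 CPM in C2, C3 and C5. All 3 cryopreserved samples were far above both fresh-frozen samples (log2 fold change 4.61, standard error 0.63, FDR = 0.00662). It kept its call in 13 of 16 alternatives and lost it with median centring, with a constant prior in limma and without C2. *ttll3* (AUIFUG00000022873), which starts glycine chains on tubulin in mice, had 17.8 and 27.4 CPM and then 321, 116 and 571 CPM (log2 fold change 3.59, standard error 0.74, FDR = 0.0351). It lost its call without F2 or C2, among other fits, at FDRs of 0.0587 to 0.449.

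*ttll9*, a glutamylase that sperm flagella of mice need for a normal beat, was higher in each cryopreserved sample than in F2 and F3 without passing. Its values were 32.8 and 19.4 CPM in F2 and F3 against 167, 91.9 and 127 CPM in C2, C3 and C5 (log2 fold change 2.26, standard error 0.69, FDR = 0.189), and it passed in the block fit at FDR = 0.0185. *ttll11*, another glutamylase, had nearly the same level in F2 and C3, 15.3 CPM, and was higher in C2 and C5 (log2 fold change 1.40, standard error 0.94, FDR = 0.327). The glutamylase *ttll5*, known from mouse sperm, ranged from 122 to 244 CPM with overlapping groups (log2 fold change 0.40, standard error 0.54, FDR = 0.616).

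*ttll10* and *ttll7* lay lower in every cryopreserved sample, and neither passed. *ttll10* (AUIFUG00000021391), which lengthens glycine chains in mice, had 57.9 and 54.9 CPM in F2 and F3 against 14.1, 42.0 and 0.211 CPM in C2, C3 and C5 (log2 fold change -2.64, standard error 1.32, FDR = 0.267). For *ttll7* (AUIFUG00000003411), a glutamylase of beta tubulin, the values were 249.6 and 259 CPM and 45.5, 189 and 10.7 CPM (log2 fold change -2.44, standard error 0.97, FDR = 0.265). In both, C3 was close to the fresh-frozen samples and C5 was lowest by far. The order C3 over C2 over C5 was also that of the Sertoli sums and of the spermatogonia and spermatocyte sums. The library medians over all features had it too. Without C3 *ttll10* and *ttll7* were downregulated DEGs, in a fit that called 25.6% of all features so. The glycylases *ttll3* and *ttll10* thus had fold changes of opposite sign, a difference between genes that was not tested. *ttl*, which adds tyrosine, *ttll1*, the catalytic subunit of the polyglutamylase complex, *ttll4* and *ttll12* overlapped between groups, with log2 fold changes of -1.20 to -0.25. The median of the 11 TTL family members was -0.25, and it turned to 0.94 after TMM rescaling.

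Enzymes that remove glutamate showed no DEG. *agbl2*, which shortens glutamate chains, had 152 and 162 CPM in F2 and F3 against 253, 243 and 395 CPM in C2, C3 and C5, a separation without overlap of modest size (log2 fold change 0.88, standard error 0.47, FDR = 0.272). *agbl5*, which removes the branching glutamate, was likewise above in all 3 samples, with 71.0 and 87.7 CPM and 101, 96.4 and 237 CPM (log2 fold change 0.73, standard error 0.64, FDR = 0.431). *agtpbp1* ranged from 76.0 to 94.7 CPM over all samples and overlapped (log2 fold change -0.12, standard error 0.62, FDR = 0.898). *agbl4* (AUIFUG00000001331) lay lower, with 10.2 and 14.3 CPM and 1.04, 7.03 and 0.381 CPM (log2 fold change -2.21, standard error 1.0, FDR = 0.265).

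Of the detyrosinase, both *VASH1* and its small partner *svbp*, which vasohibin needs for its activity, were higher in each cryopreserved sample. *VASH1* (AUIFUG00000008160) had 24.4 and 34.6 CPM in F2 and F3 against 130.0, 57.0 and 207 CPM in C2, C3 and C5 (log2 fold change 1.95, standard error 0.75, FDR = 0.265). *svbp* (AUIFUG00000003565) had 2.55 and 2.32 CPM in fresh-frozen sperm and 18.8, 8.50 and 22.9 CPM after cryopreservation (log2 fold change 2.27, standard error 0.96, FDR = 0.265). They had the same order of samples, C5 over C2 over C3, and passed only in the fit without C3. The opposing ligase *ttl* had 7.63 and 19.5 CPM and 8.28, 7.58 and 3.22 CPM (log2 fold change -0.93, standard error 0.98, FDR = 0.511), and its groups overlapped. The acetyltransferase *atat1*, which acetylates alpha tubulin inside the microtubule, overlapped as well, with 60.5 and 50.7 CPM and 35.8, 58.3 and 33.6 CPM (log2 fold change -0.42, standard error 0.74, FDR = 0.700), and its log2 fold change turned to 0.76 after TMM rescaling.

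**Figure D4:**
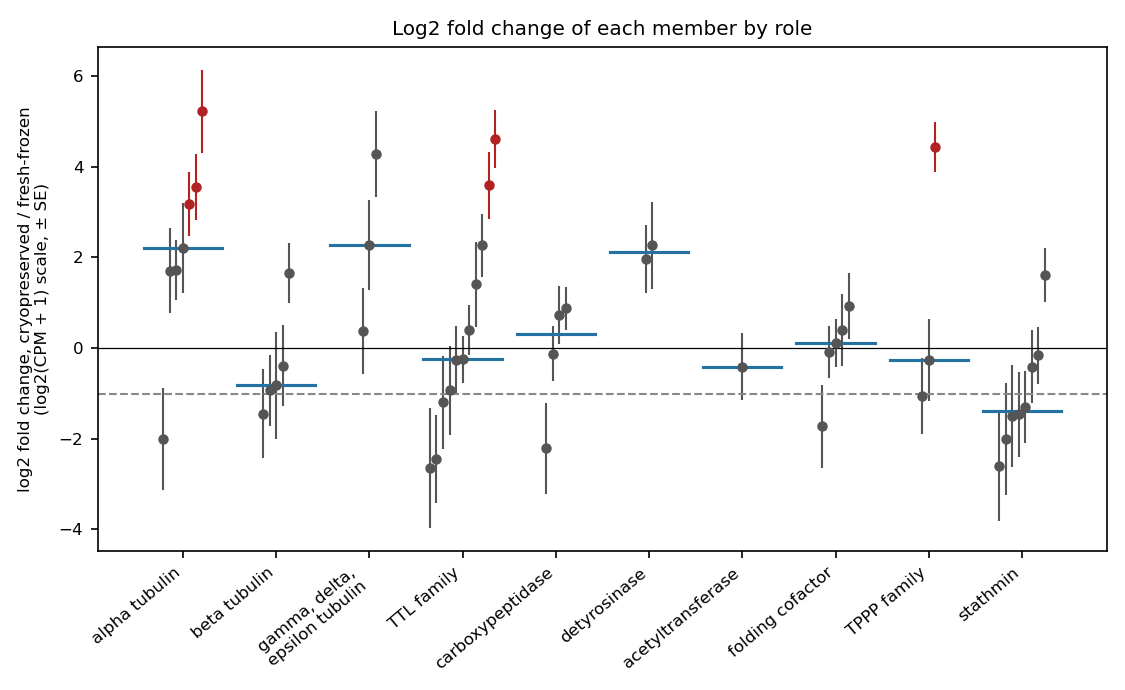
Log2 fold change (cryopreserved against fresh-frozen, on the log2(CPM + 1) scale) of each member with its standard error, by role. Red points are upregulated DEGs, blue bars the median of a role, and the dashed line the median of all features tested, -1.02. The 6 red points belong to the alpha tubulins, the TTL family and the TPPP family.

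The folding cofactors, which hand tubulin from the chaperonin to the finished heterodimer, held no DEG. *tbcd* and *tbce*, which join the alpha and beta subunits, had log2 fold changes of 0.11 and -0.08 (standard errors 0.53 and 0.57), with values of 136 to 210.1 CPM and 93.9 to 131 CPM over the 5 samples. The alpha tubulin binder *tbcb* had 24.0 and 27.3 CPM and 26.9, 36.4 and 40.7 CPM (log2 fold change 0.40, standard error 0.80, FDR = 0.734). *tbca*, which captures beta tubulin, had 42.6 and 45.1 CPM and 155, 79.7 and 48.4 CPM, separated but with C5 close to F3 (log2 fold change 0.93, standard error 0.73, FDR = 0.390). *TBCEL* (AUIFUG00000031281), a relative of *tbce* that destabilizes tubulin, lay lower at 76.5 and 65.9 CPM and 21.8, 52.0 and 7.53 CPM (log2 fold change -1.73, standard error 0.92, FDR = 0.271). Summed, the 5 cofactors were at 409 and 401 CPM in F2 and F3 against 433, 436 and 417 CPM in C2, C3 and C5.

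Of 3 TPPP features only *tppp3* (AUIFUG00000017183), whose protein bundles microtubules, rose. It had 32.8 and 26.6 CPM in F2 and F3 against 605, 418 and 1108 CPM in C2, C3 and C5 (log2 fold change 4.42, standard error 0.55, FDR = 0.00487). This was the lowest FDR of any member, and the technical replicates of C2 stood at 608 and 603 CPM. It lost the call in the same 3 alternatives as *ttll6*, with FDRs of 0.106 to 0.230. The other feature of this name, *TPPP3* (AUIFUG00000019389), and *tppp* stood at 3.23 to 4.74 CPM and 2.54 to 4.23 CPM in fresh-frozen sperm. In C5 *TPPP3* was listed at 0 and *tppp* was at 0.373 CPM, and neither was called.

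Stathmins bind free tubulin and favour disassembly, and *stmn2* to *stmn4* are known from neurons. None of 8 was a DEG, and 7 had a negative log2 fold change, of which 2 turned positive with median centring. Their median was -1.38, beside -1.02 over all features, and -0.53 without C5, where that of all features was also -0.53. *stmn2a* (AUIFUG00000009580) had 95.1 and 94.0 CPM in F2 and F3 against 16.7, 79.7 and 1.70 CPM in C2, C3 and C5 (log2 fold change -2.61, standard error 1.22, FDR = 0.265), with C3 near and C5 far from the fresh-frozen level. Of the 13 neuron marker features 6 lay below and 1 above in every cryopreserved sample, beside 41.7% and 13.6% of all features. The sum of the 13 had another order, C5 over C3 over C2. In C5 that sum held 114 CPM of *syt1b* and 78.9 CPM of *nefl* (AUIFUG00000017157). The median log2 difference of the 13 from the fresh-frozen mean was -0.98, -0.32 and -2.17 in C2, C3 and C5. These medians had the order of *stmn2a*. The 3 stathmin 1 features differed: *STMN1* (AUIFUG00000010983) had 78.0 and 51.9 CPM and 180.5, 134 and 313 CPM, above in all cryopreserved samples (log2 fold change 1.61, standard error 0.60, FDR = 0.265). *stmn1* AUIFUG00000011022 was below in all of them (log2 fold change -1.30, standard error 0.80, FDR = 0.299), and *stmn1* AUIFUG00000016225 overlapped (log2 fold change -1.50, standard error 1.12, FDR = 0.369). Reads shared by these copies could have been lost or given to another copy. *STMN2*, *STMN4* and *Stmn4* stayed below 7 CPM in every library, the last 2 listed at 0 in C5, and *stmn3* had a log2 fold change of -2.01 without passing.

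Genes that work with tubulin were taken from a list of 48 names, of which 43 were found in 53 features. Of these, 1 was an upregulated DEG and none a downregulated one (1.54% and 0.0% of all features), and 11 (20.8%) had a positive and 5 (9.43%) a negative log2 fold change at an unadjusted p below 0.05, against 6.89% and 11.3% of all features. The DEG was *LRRC49* (AUIFUG00000010147), a subunit of the polyglutamylase complex, with 20.4 and 19.4 CPM in F2 and F3 against 291, 125 and 383 CPM in C2, C3 and C5 (log2 fold change 3.53, standard error 0.68, FDR = 0.0265). *LRRC49* did not pass without C2, F2 or F3. The other *LRRC49* feature, AUIFUG00000010170, lay above in every cryopreserved sample without a call (log2 fold change 1.78, standard error 0.76, FDR = 0.265). In the block fit 3 of the 53 features (5.66%) were upregulated, beside 4.17% of all features, and without C5 there were 2 (3.77%, beside 3.1%). Without C3, 11 were upregulated and 11 downregulated, 20.8% each beside 6.77% and 25.6% of all features.

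Microtubule severing enzymes had the highest median of these lists, 2.50 over 7 features, without a call. The katanin *KATNAL1* (AUIFUG00000031247) had 7.65 and 6.99 CPM in F2 and F3 against 105, 63.1 and 135 CPM in C2, C3 and C5 (log2 fold change 3.55, standard error 0.79, FDR = 0.0517). It passed in the block fit. The other *KATNAL1* feature, AUIFUG00000031314, overlapped between the groups (log2 fold change 2.76, standard error 1.25, FDR = 0.265). Of the 7 features 5 had a positive and 2 a negative log2 fold change.

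Proteins of microtubule ends and lattices had a median log2 fold change of -1.43 over 22 features, and of -0.33 after TMM rescaling. Of these, 10 (45.5%) lay below in every cryopreserved sample, near the 41.7% of all features. The lowest was that of *map4l* (AUIFUG00000019772), with 47.0 and 41.4 CPM and 5.80, 16.3 and 0.371 CPM (log2 fold change -3.05, standard error 1.15, FDR = 0.265). The gamma tubulin ring complex had a median of -0.34 over 7 features, and of 0.80 after TMM rescaling. *Tubgcp2* was its feature with the largest change, at 34.2 and 33.2 CPM and 109, 93.3 and 152 CPM (log2 fold change 1.75, standard error 0.66, FDR = 0.265). Among the folding partners *PFDN1*, a prefoldin subunit, had 10.9 and 3.19 CPM and 30.3, 42.3 and 17.2 CPM (log2 fold change 2.04, standard error 0.96, FDR = 0.265). The tubulin deacetylase *Hdac6* was below both fresh-frozen samples in each cryopreserved one, at 109 and 127 CPM and 63.9, 76.5 and 34.2 CPM (log2 fold change -1.08, standard error 0.68, FDR = 0.307), a direction that turned after TMM rescaling (0.11).

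**Figure D5:**
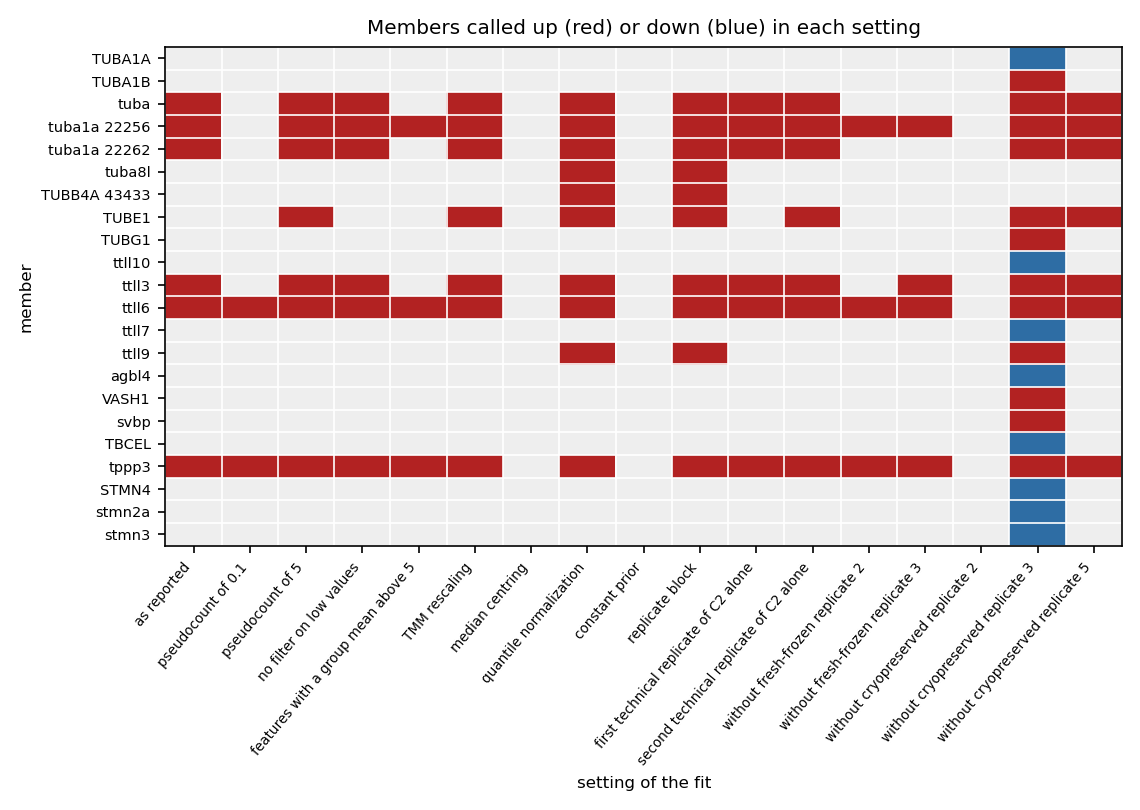
Members (rows) called up (red) or down (blue) in each fit (columns): as reported, and in 16 alternatives. *ttll6* and *tppp3* were called most often, in 13 of 16 alternatives each. Blue occurs only in the fit without cryopreserved replicate 3, and no member was called with median centring, with a constant prior or without cryopreserved replicate 2.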

How the data were processed

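Poly(A) RNA of blue catfish sperm was sequenced by the authors from directional libraries. Per the processing notes and methods, reads were trimmed with Trimmomatic 0.39, mapped with TopHat2 2.1.1 to the blue catfish genome, whose build is not given in the sources used here, and counted per gene with HTSeq 1.0. The deposited values are named RPKM. Since their columns add up to 992942 at least and 997458 at most and follow the deposited log2 mean (a logCPM column that the authors computed with edgeR, used only for this check) with Spearman's rho = 0.99995, they were taken as CPM of the authors and not divided by length. The table holds no read counts, and whole counts were not recovered from the CPM of every library, since low values were multiples of 1 spacing only in F2, so no count test was run and no counting error is given.

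All other values were computed here. The 2 technical replicates of C2 were averaged. Features with a group mean above 1 CPM were fitted with limma 3.58.1 in R 4.3.3 on log2(CPM + 1), with a trended prior, for cryopreserved (n = 3) against fresh-frozen (n = 2), and p-values were adjusted over all 27255 features (Benjamini-Hochberg). Fold changes on this scale understate the change of low genes. The fit was tested on simulated data, in which samples shared the same mean levels apart from a set of changed features. No simulated library stood apart as C5 does, so the simulation cannot show how such a library affects the calls. Alternatives were the pseudocount, the filter, the scaling, the prior, a block for the male, either technical replicate of C2 alone and leaving out each sample. The block rests on the male's ID, as the study describes its samples. Across features the difference between males 2 and 3 correlated at -0.02 between the groups.

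Members were matched by name and kept whole, and 30 of their 42 names were also RefSeq symbols. Given in full were DEGs and, in each role, the member with the highest mean and those with the highest and lowest log2 fold change. Partner genes were named where called or with the largest change of their list, and other features of the same name were added afterwards. Other members given in full were chosen after their values were seen. Members and lists were chosen with earlier results of these data known. No sequence is shown, and some genes are not reported here.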

Additional observations from a re-analysis of the deposited data

How the results depend on the processing

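The number of upregulated members, 6, became 2 with a pseudocount of 0.1, 3 among features with a group mean above 5 CPM, 10 with quantile normalization and 0 with median centring or a constant prior, while 0.572%, 1.39%, 5.21%, 0.0% and 0.0% of all features were upregulated. Leaving out single samples gave 0 to 12, with 0 without C2, 3 without F2 and 12 without C3, and the number of downregulated members 0 to 8, with 8 only without C3. The replicate block gave 10 upregulated members and 3 upregulated partner genes, against 6 and 1, and medians of -0.048 for beta tubulins and -0.076 for folding cofactors. Its prior degrees of freedom were infinite, so that its FDRs rest on the prior. The 1 upregulated partner gene of 53 features became 0 with a pseudocount of 0.1, median centring or a constant prior. It became 2 with a pseudocount of 5, TMM rescaling or the first technical replicate of C2 alone. In these 3 fits 2.46%, 2.02% and 1.53% of all features were upregulated. With quantile normalization there were 7, beside 5.21% of all features. Leaving out single samples gave 0 to 11 upregulated and 0 to 11 downregulated partner genes, with 11 and 11 without C3 and 0 upregulated without C2, F2 or F3. The 8 members below in every cryopreserved sample became 3 after TMM rescaling, where the share of all features went from 41.7% to 17.7%. Leaving out single samples gave 10 to 16, with 15 without F2 and 16 without C3. Of all features 42.3% to 60.4% lay below in those fits.

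Role medians moved with the scaling. With TMM rescaling and median centring they became 3.05 and 3.25 for alpha tubulins, -0.11 and 0.23 for beta tubulins, 3.34 and 3.33 for gamma, delta and epsilon tubulin, 0.94 and 0.80 for the TTL family, 1.49 and 1.36 for carboxypeptidases, 3.17 and 3.16 for the detyrosinase, 0.76 and 0.64 for *atat1*, and 1.30 and 1.16 for folding cofactors. Quantile normalization gave 2.73 for alpha tubulins, -0.0092 for beta tubulins, 0.32 for the TTL family and 0.21 for *atat1*. The alpha tubulin median was 2.77 with a pseudocount of 0.1 and 1.65 with 5, and the TPPP median 4.42 among features above 5 CPM, where fewer members were tested. Leaving out single samples gave medians of 2.16 to 2.84 for alpha tubulins, -1.62 to -0.048 for beta tubulins, -0.25 to 0.0097 for the TTL family and -0.076 to 0.21 for folding cofactors. The stathmin median was -0.28 after TMM rescaling, -0.33 with median centring and -0.53 with the block. Of the members given in full by rule, 315 values kept their direction and side of the threshold, 16 passed newly and 30 no longer passed. Among these members the sign turned in 6 values, each without a call. These were *atat1* at 0.76, 0.64 and 0.21 with TMM rescaling, median centring and quantile normalization, *tbcd* at -0.10 with the block and without C5, which share 1 estimate, and *tubd1* at -0.0063 without F2 (range -0.0063 to 0.77 when single samples were left out). Over all 49 members the sign held in every alternative for 35. Among the members that turned were *ttll4*, *agtpbp1* and *tbce*, at 0.94, 1.07 and 1.11 after TMM rescaling. Fits without F2 or F3 assume that the lone fresh-frozen sample varies like the cryopreserved ones. The cause of these shifts was not tested, and low values have no counting error here, since the table holds no read counts.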

Other observations

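The cryopreserved samples did not have the same order in all members. Of the 20 members with every cryopreserved sample above both fresh-frozen samples, 13 had the order C5 over C2 over C3, which all 8 sperm marker features above in every cryopreserved sample also had. In 3 of the 20, *tuba1c*, *TUBG1* and *ttll9*, C2 was highest and C3 lowest. In 4, *tuba*, *tuba8l*, the *TUBB4A* feature AUIFUG00000043433 and the folding cofactor *tbca*, C2 was highest and C5 lowest. All 8 members below in every cryopreserved sample had the order C3 over C2 over C5. Both orders were common outside the members too: 13 of 14 partner features above in every cryopreserved sample had the order of the 13, 14 of 18 partner features below had that of the 8, and the library medians over all features were 15.0 CPM in C3, 9.55 and 9.60 CPM in the replicates of C2 and 2.03 CPM in C5. The order was read from 1 sample per male and was not tested.

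A pair of features lay outside the rule for members, since they carry a tubulin description but no name. In AUIFUG00000030134 the values were 3.65 and 2.54 CPM in F2 and F3 against 38.7, 20.6 and 77.0 CPM in C2, C3 and C5, with no overlap between the groups (log2 fold change 3.32, standard error 0.96, FDR = 0.151 in limma). In AUIFUG00000003235 they were 17.1 and 19.9 CPM in F2 and F3 against 5.47, 15.5 and 1.03 CPM in C2, C3 and C5, with no overlap in the other direction (log2 fold change -1.69, standard error 1.09, FDR = 0.313). Neither was called.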
